A study of Mus musculus with 2 samples.

Results

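The genes described here encode the proteins of the cytosolic ribosome. They were chosen by symbol alone: every protein-coding gene of GENCODE vM21 named Rpl or Rps with a number and an optional final a, l or x, together with Rplp0, Rplp1, Rplp2 and Rpsa. This gave 80 of the 21938 protein-coding genes, 49 of the large subunit and 31 of the small subunit. The study mapped where MAFK sits on the genome of ES-E14 cells, a male mouse embryonic stem cell line of strain 129/Ola, by chromatin immunoprecipitation with sequencing (ChIP-seq), in which DNA bound by a protein is pulled down with an antibody and sequenced. There was 1 group with 2 biological replicates of this 1 line, with no treatment or genotype named in the labels and the same source of cells for both. The control experiment was not analysed here. The optimal list of the authors, made from both replicates together, held 16865 bound regions on mm10, each with a summit and a signal value, a score whose scale is not stated and which ranks regions within a list only. A gene was counted as having a nearby region when a summit lay within 10 kb of the transcription start site (TSS) of any of its transcripts. No read counts were given, so the read depth is unknown, and RNA was not measured, so neither the expression of these genes nor cell type markers could be examined.

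MAFK is a small MAF protein with a basic leucine zipper and no activation domain of its own. It binds DNA as a homodimer or as the partner of a CNC protein such as NFE2, NRF2 or BACH1, at antioxidant response elements (ARE) and related sites. Ribosomal protein genes are housekeeping genes transcribed at high and matched levels in growing cells, mostly from short promoters in CpG-rich DNA that are known for ETS, YY1 and GC-box sequences. Many carry small nucleolar RNAs (snoRNAs) in their introns.

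Sequences from some of these regions are shown first because they separate the regions by the sequence element found within 50 bp of the summit. The centre of the element shown was from 3 bp (Rpsa) to 39 bp (Rpl31) from the summit. The printed Rpl31 window does not reach its summit. Each sequence is read 5′ to 3′ from the GRCm38 reference of RefSeq, on the strand that holds the element, with the element in capitals. The ARE core is TGACNNNGC or TGAGNNNGC. The NFE2-type composite element is a CNC site run together with a MAF site, and any match to it also matches the ARE core, the MAF core TGCTGA on the other strand, and the AP-1 site TGACTCA or TGAGTCA. The first windows hold the composite element and come from the regions near Rps7 (chr12:28628610-28628669, plus strand), Rps6 (chr4:86862449-86862508, minus strand), Rpl19 (chr11:98036223-98036282, minus strand), Rpl27 (chr11:101451766-101451825, minus strand) and Rpl11 (chr4:136028918-136028977, plus strand).
Rps7: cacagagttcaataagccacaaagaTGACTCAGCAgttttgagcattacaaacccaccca
Rps6: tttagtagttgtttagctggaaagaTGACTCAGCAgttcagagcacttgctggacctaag
Rpl19: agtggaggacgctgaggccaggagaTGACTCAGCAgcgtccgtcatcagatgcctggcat
Rpl27: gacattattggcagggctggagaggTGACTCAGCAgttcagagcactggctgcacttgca
Rpl11: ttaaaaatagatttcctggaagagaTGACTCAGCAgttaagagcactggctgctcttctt

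The next windows hold the ARE core without the composite element, at Rps21 (chr2:180252020-180252079, minus strand) and Rpl31 (chr1:39376232-39376291, plus strand). The window at Rpsa (chr9:120134255-120134314, minus strand) holds the MAF core and no other element. The window at the summit of the Rps20 promoter region (chr4:3835881-3835940, plus strand) holds none of the 10 elements searched. The Rps21 and Rpsa windows also hold a MAF core on the strand not shown, which is not in capitals. The windows of Rpl27, Rpsa and Rps20 were chosen after their values were seen, the others by rank of signal.
Rps21: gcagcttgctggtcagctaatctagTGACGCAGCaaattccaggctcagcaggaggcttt
Rpl31: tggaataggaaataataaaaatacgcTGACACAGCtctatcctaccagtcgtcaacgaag
Rpsa: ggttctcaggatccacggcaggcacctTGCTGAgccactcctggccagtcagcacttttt
Rps20: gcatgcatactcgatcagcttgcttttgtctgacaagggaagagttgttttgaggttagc

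A summit of the optimal list lay within 10 kb of 27 of the 80 ribosomal protein genes, which is 33.8% (95% Wilson interval 24.3 to 44.6, counting error only). The background was 26.9% of the other protein-coding genes (5871 of 21858), and that value lies inside the interval, which changes with the definition of a start given further on. Ribosomal protein genes had CpG-rich promoters more often than the rest, 82.5% against 44.3%, where CpG-rich means a CpG observed to expected ratio of at least 0.6 and a GC content of at least 50% within 500 bp of the 5′ end. Among the other genes with a CpG-rich promoter the background was 35.5% (3435 of 9676), against 39.4% of the ribosomal protein genes with one (26 of 66, interval 28.5 to 51.5). The interval of these 66 genes holds the value of the other genes with the same kind of promoter. Rps10 was the gene with a nearby summit and no CpG-rich promoter by this measure. Its summit was 2 bp from the start of a coding transcript but 1122 bp from the 5′ end, and the CpG content at that start was not measured.

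Within 1 kb of a TSS there was a summit for 11 ribosomal protein genes (13.8%, interval 7.85 to 23.0), beside a background of 8.64% for all other genes. With a CpG-rich promoter the shares were 15.2% (10 of 66, interval 8.44 to 25.7) and 12.5%. No gene had its nearest summit between 1 and 2 kb away, where 3.32% of the other genes had theirs. Between 2 and 5 kb there were 5 (6.25%, against 6.64% of the others), and between 5 and 10 kb 11 (13.8%, against 8.27%). Another 30 lay between 10 and 50 kb (37.5%, against 32.4%) and 23 farther (28.8%, against 40.8%). The median distance to the nearest summit was 21938 bp for ribosomal protein genes and 33213 bp for the others. Among genes with a CpG-rich promoter it was 18390 bp and 20922 bp.

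**Figure D1:**
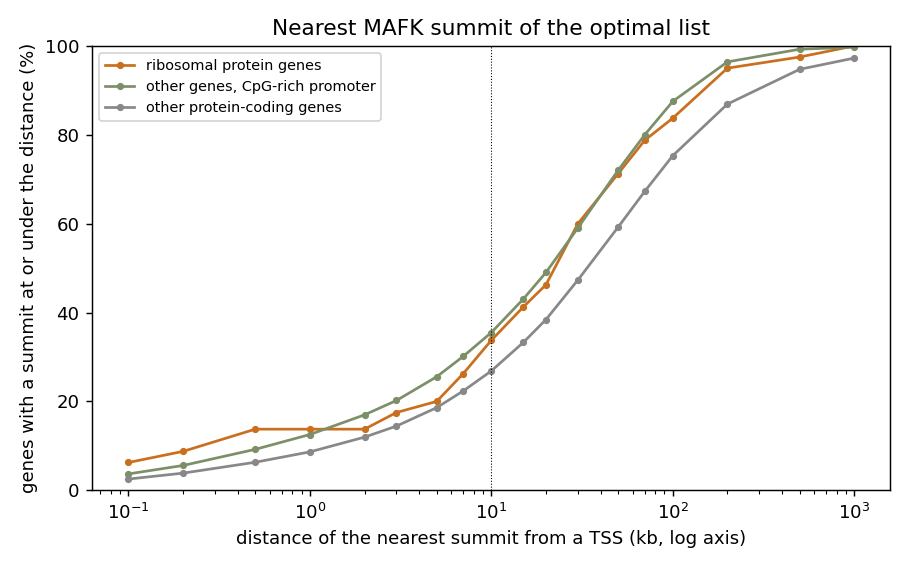
Cumulative percent of genes (vertical axis) whose nearest summit of the optimal list lies at or under a distance from a TSS (horizontal axis, kb, log scale), for the 80 ribosomal protein genes, the other protein-coding genes and those of them with a CpG-rich promoter; the dotted line marks 10 kb. The ribosomal protein genes reach 13.8% at 1 kb, stay there to 2 kb, and at 10 kb (33.8%) lie between the other genes (26.9%) and the CpG-rich others (35.5%).

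Of the small subunit genes, 11 of 31 had a summit within 10 kb (35.5%, interval 21.1 to 53.1), among them Rps6, Rps7, Rps10, Rps19, Rps20, Rps21, Rps27a, Rps29 and Rpsa. Of the large subunit genes, 16 of 49 had one (32.7%, interval 21.2 to 46.6): Rpl3, Rpl7a, Rpl9, Rpl11, Rpl12, Rpl13, Rpl13a, Rpl14, Rpl19, Rpl27, Rpl28, Rpl30, Rpl31, Rpl32, Rpl35a and Rpl37a. The intervals of both shares overlapped, and the 5 strongest regions were all at small subunit genes. The median of the strongest signal per gene was 42.5 for the small subunit (14.96 to 163) and 21.5 for the large subunit (9.99 to 67.5), with overlapping ranges and no test. Over all 27 genes this median was 25.1, against 31.4 over the other genes with a nearby summit and 27.9 over all regions of the list, and 13 of the 27 genes were at or above that last value. The 27 values come from 26 regions, because a region shared by genes of both subunits counts for each.

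The strongest region was upstream of Rps21, which encodes a small subunit protein. It had a signal of 163 in the optimal list, rank 568 of 16865. Replicate 1 gave 65.3 and replicate 2 gave 95.7, each from its relaxed list, which the authors made with background regions kept and from which all replicate values below are taken. Its summit was 5320 bp before the TSS, between genes, and the region spanned chr2:180251953-180252176. The ARE core shown above is centred 7 bp from that summit.

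The next was at Rps7, a small subunit gene mutated in some families with Diamond-Blackfan anaemia, a failure of red cell production. Its signal was 142, with 81.5 in replicate 1 and 62.8 in replicate 2. The region (chr12:28628524-28628729) lay between genes, past the 3′ end of Rps7, with its summit 3286 bp downstream of the nearest annotated start and 7322 bp from the 5′ end of the gene. Behind it came a region past the 3′ end of Rpsa, which encodes a small subunit protein that is also known as the laminin receptor. Its signal was 113, with 56.3 and 57.1 in the replicates, at chr9:120134192-120134346 and 6592 bp from the 5′ end of the gene.

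Rps6, whose protein is the best known substrate of the S6 kinases, had a region 5075 bp upstream (chr4:86862420-86862528). Its signal was 76.7, with 45.2 in replicate 1 and 30.9 in replicate 2. Its summit was in repeat-masked sequence and its window held the composite element. Rpl19 was the highest of the large subunit genes and held the same element, with a signal of 67.5 and replicate values of 26.7 and 42.0 at chr11:98036129-98036424. That region lay 9320 bp from a start of Rpl19 and closer to Stac2, whose TSS was 7265 bp away.

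The region at Rpl13a had rank 5085 (chr7:45117146-45117441). Its signal was 42.5, with 20.2 and 24.3 in the replicates, and its summit was 9243 bp from a start of the gene. It held none of the elements. Rpl31 had a region in an intron of Tbc1d8, whose TSS was the nearest one at 3868 bp. Its signal was 33.0, with 21.2 and 17.5 in the replicates. The region upstream of Rps19, the gene most often mutated in Diamond-Blackfan anaemia, had a signal of 32.4 with 19.6 in replicate 1 and 12.2 in replicate 2, and only replicate 1's own list called it.

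**Figure D2:**
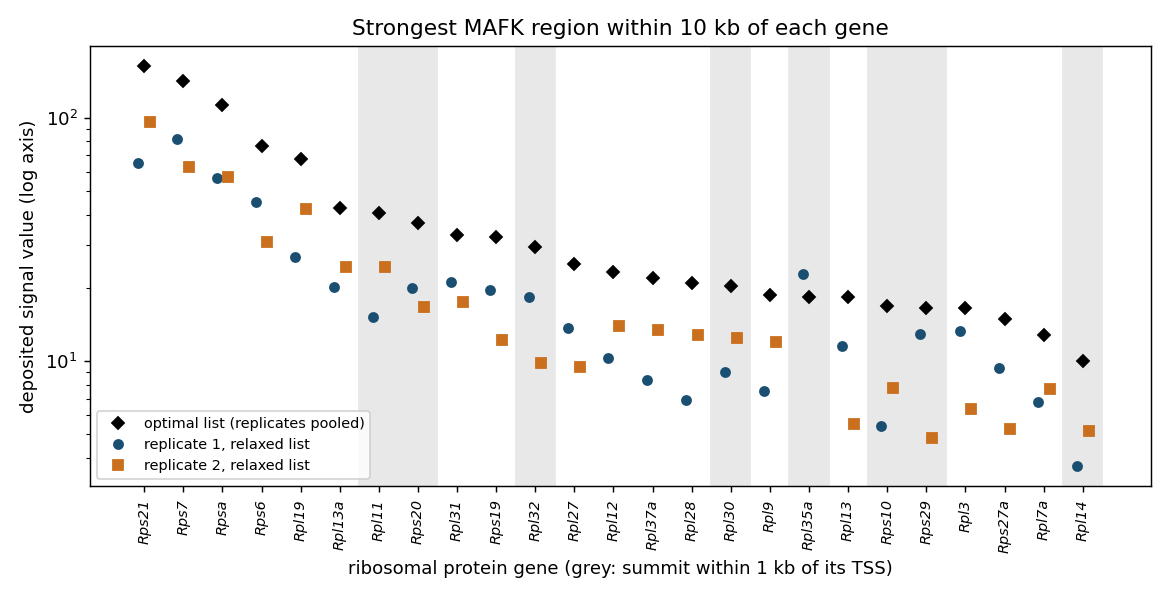
Deposited signal value (vertical axis, log scale) of the strongest region within 10 kb of 25 of the 27 ribosomal protein genes (horizontal axis, ordered by signal): diamonds are the optimal list, circles and squares the relaxed lists of replicates 1 and 2, and grey columns mark summits within 1 kb of a TSS. The 5 highest genes shown, from Rps21 (163) to Rpl19 (67.5), are all outside the grey columns, and Rpl35a has no value in replicate 2.

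Rpl11, which binds 5S rRNA and, when free of the ribosome, the ubiquitin ligase MDM2, had its strongest region at chr4:136028770-136029065. The signal was 40.6, with 15.2 in replicate 1 and 24.3 in replicate 2. The summit was 120 bp from an annotated start, but that start belongs to a short non-coding transcript, and the summit was 24510 bp from the 5′ end of the gene, in an intron of a long transcript. In RefSeq, whose Rpl11 spans chr4:136049354-136053393 on the minus strand, the summit lies past the 3′ end of the gene. Rpl11 therefore counts as a gene with a promoter region only by the annotation of that transcript. A further region of nearly the same signal (40.4, with 19.7 in replicate 1 and 18.5 in replicate 2) lay at chr4:136030903-136031198. Its summit was 22377 bp from the 5′ end of the gene and was not repeat-masked. The composite element lay within 50 bp of that summit, and both replicates' lists called the region.

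The choice of start also touched other genes. With starts of protein-coding transcripts alone, 9 ribosomal protein genes (11.2%) had a summit within 1 kb, against 7.18% of the others, and with the 5′ end of the gene alone 8 had one (10%), against 5.83%. Within 10 kb the counts were 26 (32.5% against 23.0%) and 25 (31.2% against 20.1%). The lower ends of the intervals of these 10 kb shares were 23.2 and 22.2, so with either definition the background of all other genes lay under the interval. With the 5′ end alone and a CpG-rich promoter the shares were 36.4% (24 of 66, interval 25.8 to 48.4) and 26.0%, which is inside it. Rpsa had a further region in a coding exon, 385 bp from an annotated start and 1502 bp from the 5′ end, with a signal of 23.1 and replicate values of 14.2 and 7.61.

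Regions at the promoters other than that of Rpl11 had signals of at most 36.8. Rps20 had the highest after Rpl11, with its summit 246 bp upstream of the TSS (chr4:3835763-3836058), a signal of 36.8, and replicate values of 19.9 and 16.7. It was the only region within 1 kb of a ribosomal protein TSS that both replicates' own lists called. Rpl32 had a signal of 29.4, with 18.3 in replicate 1 and 9.79 in replicate 2, at 213 bp upstream. Rpl30 had its summit in its UTR, 12 bp from the TSS, with a signal of 20.3 and replicate values of 9.06 and 12.4. The other promoter regions included those at Rps19 (19.3), Rpl35a (18.4), Rps10 (16.8), Rps29 (16.6) and Rpl14, which had 3 overlapping regions with signals of 9.99, 8.37 and 6.08.

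Rpl35a was the gene whose region lacked a match in a relaxed list. Its region had a signal of 22.8 in replicate 1's relaxed list, no overlapping region in replicate 2's, and 18.4 in the optimal list. The other 35 regions overlapped a region of both relaxed lists, and overlapping regions, as at Rpl7a, could share a relaxed region. The value of replicate 1 was the higher in 19 of the 35, though lists made separately are not on a common scale. The median log2 ratio of replicate 1 to replicate 2 was 0.0931 for these genes' regions and -0.0896 for all regions. The Rpl35a summit was also 106 bp from the TSS of Iqcg, on the other side of the same promoter.

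Over the 13 regions within 1 kb the median signal was 18.8 (6.08 to 40.6), and 1 of them (7.69%, interval 1.37 to 33.3) overlapped both replicates' lists. Over all regions of the list within 1 kb of a protein-coding TSS the median was 24.7 and the share 30.3%. The 23 regions farther from a ribosomal protein TSS had a median of 25.1 (3.83 to 163), and 9 of them (39.1%, interval 22.2 to 59.2) were called in both. Over all regions more than 1 kb from any protein-coding TSS the values were 28.3 and 36.1%. That class is not the same, since the 23 include the Rpl7a regions, 7 and 184 bp from the TSS of Surf6. The median of the near regions was thus under that of all promoter regions, and replicates both called them less often in these lists, though the interval from 13 regions is wide and holds the 30.3%.

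In all, the 27 genes had 36 regions, or 31 when overlapping regions were merged. Both replicates' lists called 10 of the 36 (27.8%, interval 15.8 to 44.0), against 35.4% of all regions, and 18 (50%) were in neither, against 38.1%. The called ones were among the 11 regions of highest signal, of which the strongest Rpl11 region alone was missing from replicate 1's list. Below the signal of Rpl31 no region was called in both.

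**Figure D3:**
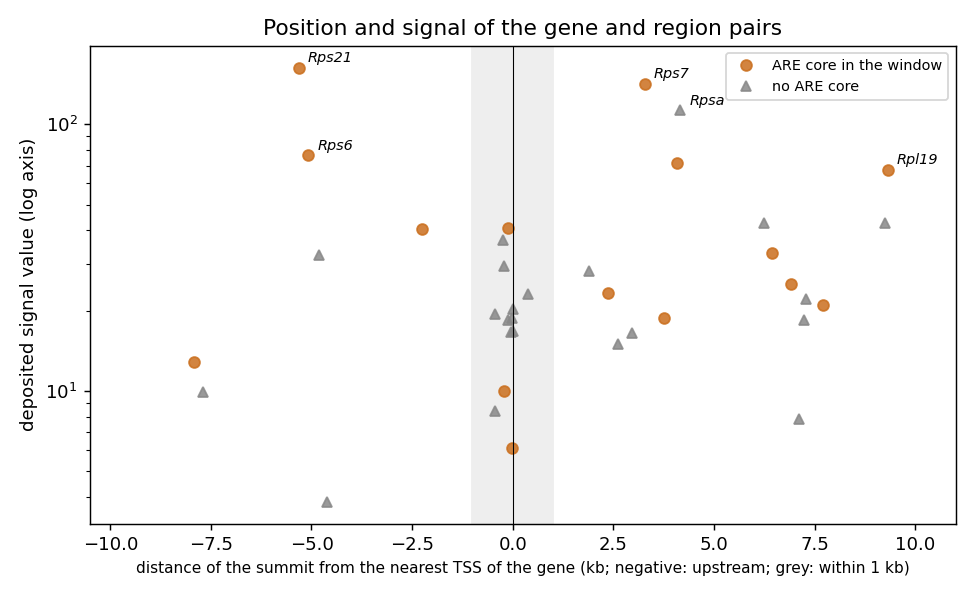
Deposited signal value (vertical axis, log scale) of each pair of gene and region against the distance of the summit from the nearest TSS of the gene (horizontal axis, kb, upstream negative); circles have an ARE core within 50 bp of the summit, triangles have none, and the grey band is 1 kb to either side. The regions above 60 lie outside the band, from Rpl19 (67.5) to Rps21 (163), and those inside it reach 40.6.

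Of the 36 summits, 22 lay between genes, 10 in introns, 2 in UTRs, 1 in a coding exon (Rpsa) and 1 in an exon of a non-coding transcript (Rpl12). There were 18 upstream and 18 downstream of the nearest start of the gene. These positions and those below depend on the 10 kb rule that chose the regions. The same counts over all regions are not given here. For 9 regions the nearest protein-coding TSS belonged to another gene. These were the regions at Rpl19 (Stac2), Rpl31 (Tbc1d8), Rpl27 (Ifi35), Rpl35a (Iqcg), Rpl13 (Cpne7), Rpl3 (Syngr1) and Rpl7a (Surf6). Each of these 7 genes had no region of its own beyond those. The regions counted for Rpl7a were 7 and 184 bp from the start of Surf6, its neighbour in the surfeit cluster, and had signals of 12.8 and 9.92. When each summit was given only to its nearest TSS, 19 ribosomal protein genes (23.8%) had one, against 22.0% of the others.

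The remaining genes had single or weak regions at a distance. Rpl12 (23.3), Rpl37a (22.0), Rpl28 (20.9), Rpl9 (18.7), Rpl13 (18.4), Rpl3 (16.5) and Rps27a (14.96), which encodes ubiquitin fused to a ribosomal protein, had summits from 2362 to 7711 bp away. Rpl27, with a signal of 25.1 and the composite element shown above, had its regions in an intron of Ifi35.

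The ARE core lay within 50 bp of 15 of the 36 summits (41.7%, interval 27.1 to 57.8). It lay near 60.3% of all summits of the list and in 8.33% of the 72 windows of the same width placed 1 kb to either side of these regions. Of the regions within 1 kb of a TSS, 3 of 13 held it (23.1%, interval 8.18 to 50.3), against 45.9% of all regions within 1 kb of a protein-coding TSS. They were the strongest Rpl11 region, near the start of a non-coding transcript, and the Rpl14 regions with signals of 9.99 and 6.08. These Rpl14 regions overlap each other, and the interval counts them as separate. Of the farther regions, 12 of 23 held the ARE core (52.2%, interval 33.0 to 70.8), against 62.2% of all regions more than 1 kb from any protein-coding TSS. The 12 include the Rpl7a region that lay 7 bp from the TSS of Surf6. The 5′ ends of the ribosomal protein genes held the ARE core in 13.8% of windows and those of other genes in 11.7%, and the composite element was in 0 of the 80 and in 0.0549% of the others.

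The MAF core was near 14 of the 36 summits (38.9%, against 62.8% of all), the AP-1 site near 8 (22.2%, against 37.8%) and the composite element near 7 (19.4%, interval 9.75 to 35.0, against 28.2%). The ETS sequence CCGGAAG was near 3 summits (8.33%, interval 2.87 to 21.8, against 0.897%), those of Rps10, Rpl27 and Rpl7a. The Rpl7a summit was 7 bp from the TSS of Surf6, and the Rpl27 summit (signal 7.81) was in an intron of Ifi35. Within 1 kb of a ribosomal protein TSS it was thus near 1 of 13 summits (7.69%, interval 1.37 to 33.3), against 3.27% of all promoter regions. At the 5′ ends themselves the ETS sequence was in 18.8% of the ribosomal protein genes and 6.60% of the others. The YY1 sequence AAGATGGC was in 5% of these 5′ ends and 1.70% of the others, and near 0 of the 36 summits, against 0.683% of all. The GC box GGGCGG was near 3 summits, all within 1 kb of a TSS, with Rps29 and Rpl14 among the genes. That is 23.1% of the 13 near regions (interval 8.18 to 50.3), against 13.3% of all promoter regions, and at the 5′ ends it was in 23.8% of these genes and 27.8% of the others. A match describes these letters only and does not show which factor is bound.

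**Figure D4:**
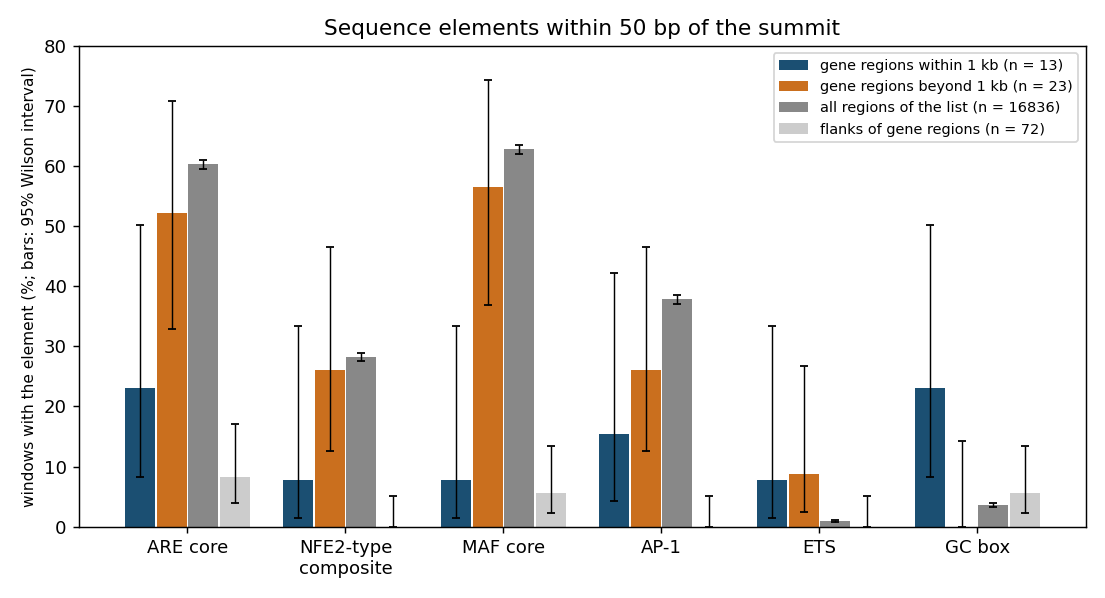
Percent of windows (vertical axis) of 50 bp to either side of the summit that hold each sequence element (horizontal axis), for ribosomal protein gene regions within 1 kb of a TSS and farther away, all regions of the list, and flanking windows; bars on the columns are 95% Wilson intervals. The ARE core was in 23.1% of the near and 52.2% of the far regions, beside 60.3% of all regions and 8.33% of flanks.

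The windows with the composite element also shared letters beside it. In 5 of the 7 (71.4%) it was preceded by GA and followed by G, as in 18.3% of all 4754 regions with the element. This pattern was read from these same windows, some of which share flanking letters, so no interval is given and no difference was tested. The summit was repeat-masked in 5 of the 7, against 25.8% of the 4754. The element itself was repeat-masked in each of the 5 windows printed above, also at Rpl19, where the summit was not. Among the windows printed above, Rps6 and Rpl27 had 32 of 50 flanking letters in common (64.0%), and each shared 29 of 50 (58.0%) with the Rpl11 window. In the first 20 letters after the element, Rps6 and Rpl27 shared 18. Each other pair among the 5 windows printed with this element had from 28.0% to 46.0% of the 50 flanking letters in common. These comparisons were made after the sequences had been seen, and the repeat family was not annotated here. Over all 36 regions 10 summits (27.8%) were repeat-masked, against 16.4% of the list. The part of repeats in these counts was not tested.

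The 10 kb limit left out the strongest region near any of these genes. Of the genes just inside it, Rpl28 had its summit at 7711 bp (20.9), Rpl13a at 9243 bp (42.5) and Rpl19 at 9320 bp (67.5). Just outside were Rpl23a at 10175 bp (36.4), Rps15a at 10349 bp (420), Rps25 at 10405 bp (16.7) and Rps14 at 10995 bp (17.6). The Rps15a region, singled out after its value was seen, had rank 13 of the list, with 209 in replicate 1 and 211 in replicate 2, and both replicates' lists called it (chr7:118104703-118105069). It lay at the 3′ end of the gene, where the annotation has a UTR, and held the composite element (chr7:118104880-118104909, minus strand, 30 bases).
Rps15a: acaggaatcaTGAGTCAGCAgaaacctgag

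The other 53 genes had no summit of the optimal list within 10 kb. In the pooled relaxed list, which keeps background, 45 of them had a region within 1 kb, with a median signal of 8.88 and values up to 17.3. The highest were Rps26 (17.3), Rps14 (16.5), Rpl34 (15.8), Rplp2 (14.6) and Rpl41 (14.1). Rps26 had 10.7 in replicate 1 and 4.07 in replicate 2, and Rps14 had 10.5 and 7.91. With all 80 genes, 71 (88.8%) had a relaxed region within 1 kb, with a median of 9.43, against 64.1% and 7.21 for other genes and 85.7% and 7.80 for others with a CpG-rich promoter. Since this list holds background as well, these regions are not calls of binding.

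By role, none of the 3 stalk genes Rplp0, Rplp1 and Rplp2, whose proteins recruit translation factors, had a summit within 10 kb, a share whose interval of 0 to 56.1% holds the background of 26.9%. Of Rpl5, Rpl11 and Rpl23, whose proteins bind MDM2, Rpl11 had one, with the limit on its start given above. Of 17 genes linked to Diamond-Blackfan anaemia, 7 had one (41.2%, interval 21.6 to 64.0): Rps7, Rpl11, Rps19, Rpl27, Rpl35a, Rps10 and Rps29. Of the 4 annotated second copies 0 had one, with an interval of 0 to 49.0% that also holds the background. Of the genes with a snoRNA inside, 11 of 29 had a summit (37.9%, interval 22.7 to 56.0), and of those without, 16 of 51 (31.4%, interval 20.3 to 45.0).

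The shares of other genes of the pathway ran from 28.8% to 50%. Among 8 ribosomal protein genes outside the symbol rule, 4 had a summit within 10 kb, Rpl7l1 (18.6) and Rack1 (16.8) among them. Of 78 mitochondrial ribosomal protein genes, 23 had one (29.5%, interval 20.5 to 40.4), with Mrps18b (197), Mrpl38 (139) and Mrpl14 (110) as the strongest. The Mrpl14 summit was 73 bp from the TSS, and both replicates' lists called it. Of 66 genes with translation factor symbols, 19 had one (28.8%, interval 19.3 to 40.6), led by Eif3d (176, at 45 bp from the TSS), Eif4ebp1, which encodes a repressor of eIF4E (78.0), and Eif4e1b (59.0). Of 34 ribosome biogenesis genes, 10 had one (29.4%, interval 16.8 to 46.2), led by the RNA polymerase I gene Polr1a (83.2), the rRNA methyltransferase gene Nop2 (75.1, at 126 bp) and Polr1e (65.9). The highest signals within 1 kb of a cytosolic ribosomal protein TSS were 40.6 at Rpl11, near a non-coding start, and 36.8 at Rps20. Both were below those of Mrpl14, Eif3d and Nop2. Those genes were named as among the strongest of their lists, and promoter signals over the full lists were not compared.

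**Figure D5:**
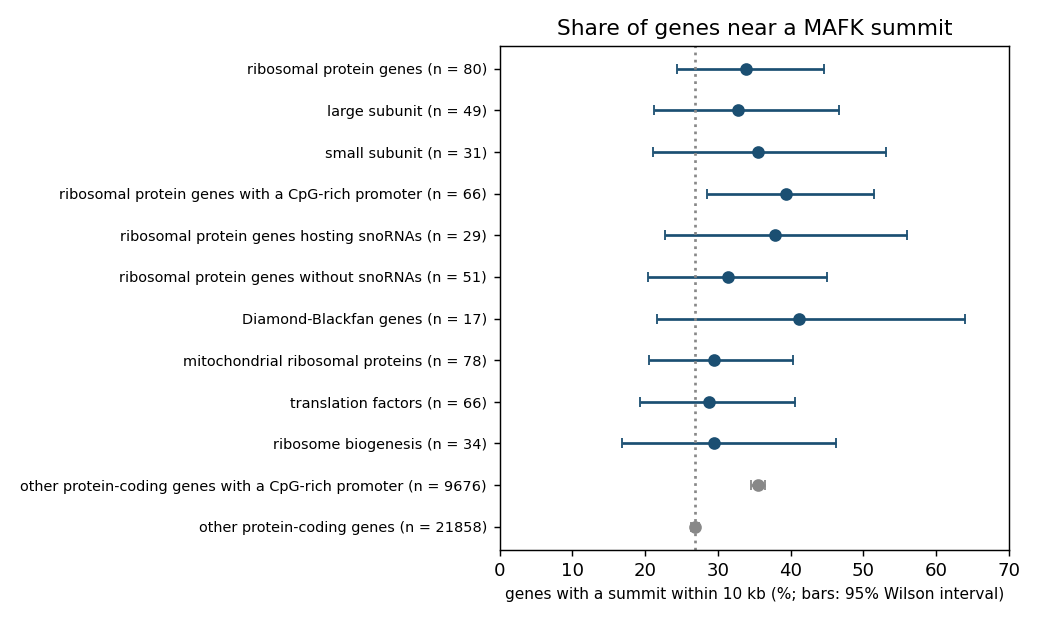
Percent of genes with a summit of the optimal list within 10 kb of a TSS (horizontal axis) in each gene list (vertical axis, with its number of genes), with 95% Wilson intervals; the dotted line is the value of the other protein-coding genes. The intervals of the ribosomal protein gene lists and of the pathway lists overlap each other. That of the 80 ribosomal protein genes (24.3 to 44.6) holds both the 26.9% of other genes and the 35.5% of CpG-rich others. The interval of the other genes (26.3 to 27.5) lies under that of the others with a CpG-rich promoter (34.6 to 36.5). It also lies under that of the ribosomal protein genes with such a promoter (28.5 to 51.5), which is not a comparison of like promoters. The 35.5% of the others with a CpG-rich promoter lies inside the interval of 28.5 to 51.5.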

How the data were processed

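The files are lists of regions on mm10, from 2 biological replicates, and the genome used is GRCm38, the same assembly. Per the deposited text notes, 1 processing run gave the relaxed, optimal and conservative lists, and a second run, from other alignments, gave each replicate's own thresholded list and the list of both. Which aligner, peak caller and read filters made them is not given in the sources used here. The deposited signal value is a score with no stated scale, used to rank and describe regions. The scaled IDR score (irreproducible discovery rate) that the authors deposited was read but no threshold was added.

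Summits were assigned to every transcript start of GENCODE vM21 on assembled chromosomes (16836 of 16865 regions). Regions overlapped when they shared 1 bp. Sequence elements were sought in both orientations, up to 50 bp from each summit, with Python 3.11.15 and pysam 0.24.0, and the assignment and search were tested on simulated data. Intervals are 95% Wilson intervals and cover counting error only. With 1 group and 2 replicates no comparison was tested, and the spread between replicates may be technical. The genes and lists were chosen with earlier results of these data known. Some genes and sequences are not reported here, though the counts include them. By rule, every other gene with a summit was named, with replicate values for the 12 of highest signal and the 5 highest within 1 kb, the 5 highest of the genes without one, and up to 3 of each other list. The alternatives tried were other lists, distances, start definitions, overlaps and windows.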

Additional observations from a re-analysis of the deposited data

How the results depend on the processing

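The share of ribosomal protein genes with a summit within 10 kb was 33.8%, against 26.9% of other genes. It was 17.5% to 20% with 1 replicate's own list (others 13.7% to 17.3%), 16.2% with the strongest 50% of regions (15.1%) and 23.8% with each summit counted for its nearest TSS only (22.0%). It was 13.8% within 1 kb (8.64%) and within 2 kb (12.0%), 20% within 5 kb (18.6%) and 71.2% within 50 kb (59.2%). At 50 kb the background lay under the interval of 60.5 to 80.01, while among genes with a CpG-rich promoter the 72% of the others lay inside the interval of 62.6 to 83.3. The median strongest signal, 25.1, was 29.4 in the conservative list and in the second run's list of both replicates, 21.2 to 23.8 with 1 replicate's list, 42.5 with the strongest 50% of regions and 19.3 for summits within 1 kb. The cause of these shifts was not tested, and signals of lists made separately are not on a common scale. The ARE core was in 41.7% of summit windows with 50 bp to either side, in 25% with 25 bp and in 55.6% with 100 bp. With other lists it was in 40.5% (second run), 48.5% (conservative), 50% to 52.9% (1 replicate) and 57.1% (strongest 50%). The shares over all regions under these alternatives are not given here. The 60.3% of all summits applies to the optimal list with 50 bp only. The share of regions within 1 kb, 36.1%, was 17.6% to 28.6% with 1 replicate's list and 21.4% with the strongest 50%. Of all 16836 regions on assembled chromosomes, 1986 lay within 1 kb of a protein-coding TSS, but these were not limited to 10 kb of a gene. The share of regions called in both replicates moved by less than its interval under each alternative tried. Counting overlapping regions once, an alternative chosen after seeing the data, gave 32.3% called in both, 45.2% with the ARE core and 35.5% within 1 kb. No paired analysis was possible because there is 1 group. The unknown read depth and the 2 replicates limit what a missing region shows.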

Other observations

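Mouse ribosomal protein genes have many processed pseudogenes, copies made from their mRNA. By symbol, 294 ribosomal protein pseudogenes were annotated, and a summit of the optimal list lay inside 1 of them (0.340%), as it did in 0.422% of the 9942 other processed pseudogenes (42). Within 10 kb of the pseudogene there was a summit for 43 (14.6%) and for 10.8% of the others. Many such pseudogenes carry names that the symbol search does not find, and these were counted with the others.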
